A study of Rattus with 6 samples.

Results

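The expression of 40 marker genes of macrophages and other leukocytes was followed across 6 RNA-seq libraries of cultured rat bone marrow mesenchymal stem cells. The genes were chosen by name, as rows of the deposited table whose gene symbol was on a list of macrophage and leukocyte markers. All 40 were found among the 16690 genes of the table. The marrow was flushed from hindlimb bones of rats of the Sprague Dawley strain, labelled wild-type in every library. By their titles, 3 libraries belong to chronic kidney disease (CKD) model rats and 3 to healthy control rats. How the disease was induced, the age of the animals and whether marrow was pooled are not given in the sources used here.

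Leukocytes share a set of proteins that other cells largely lack, among them the surface phosphatase CD45, encoded by Ptprc, and a cytoskeleton built for migration. Macrophages arise from monocytes under the transcription factor PU.1, encoded by Spi1, and live on signals through the receptor CSF1R. They take up debris through scavenger receptors, pass it to CD68-bearing lysosomes and kill microbes with lysozyme and an oxidase. In marrow cultures, adherent macrophages grow on the same plastic as the stromal cells, and absence of CD45 is one of the usual criteria for calling a culture mesenchymal. The labels say that flow cytometry found CD29 and CD90 on these cultures but neither CD34 nor CD45.

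Several label conflicts bear on every value below. By the design text the RNA is cellular, whereas the extract protocol describes exosome RNA. The disease model tag of CKD replicate 1 says control and that of control replicate 2 says CKD, against their titles, library names and column codes, which were followed here. The library called CKD replicate 3 here, after its column code, carries the number 4 in its title. Library names share a start in CKD replicates 1 and 3, and in control replicates 1 and 2, and no label ties a library to its own animal. What a p-value measures here is only how far the 6 libraries spread, and that spread may be technical. Depth was 34404037 to 46892613 fragments per library, and at the depth of each library 3 fragments of a marker gene were worth between 0.00607 and 0.145 FPKM (fragments per kilobase of gene, scaled to library depth). In bulk RNA, fewer cells of a type and less RNA per cell cannot be told apart.

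The marker genes were high in CKD replicates 2 and 3, low but clearly counted in CKD replicate 1 and control replicate 1, and close to the counting floor in control replicates 2 and 3. Their median level was 27.8 and 20.1 FPKM in CKD replicates 2 and 3. It was 1.57 FPKM in CKD replicate 1 and 3.31 FPKM in control replicate 1. In control replicates 2 and 3 it was 0.195 and 0.133 FPKM. The libraries thus did not divide by disease group, since control replicate 1 lay above CKD replicate 1.

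This order was shared by most of the genes. For 37 of 40, CKD replicates 2 and 3 were both above the other 4 libraries, a pattern held by 28.7% of all genes in the table. Control replicate 1 was above CKD replicate 1 for 34 of the 40, against 48.1% of all genes. It was also above both other controls for 36. The share over all genes was not computed for this count or for those that follow in this paragraph. The full order of libraries, from CKD replicate 2 through CKD replicate 3, control replicate 1, CKD replicate 1 and control replicate 2 to control replicate 3, held for 20 genes, and 8 more differed from it only in the last 2 places. No gene was at 3 fragments or fewer in CKD replicate 2 or 3, while 12 were in control replicate 2 and 14 in control replicate 3.

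**Figure D1:**
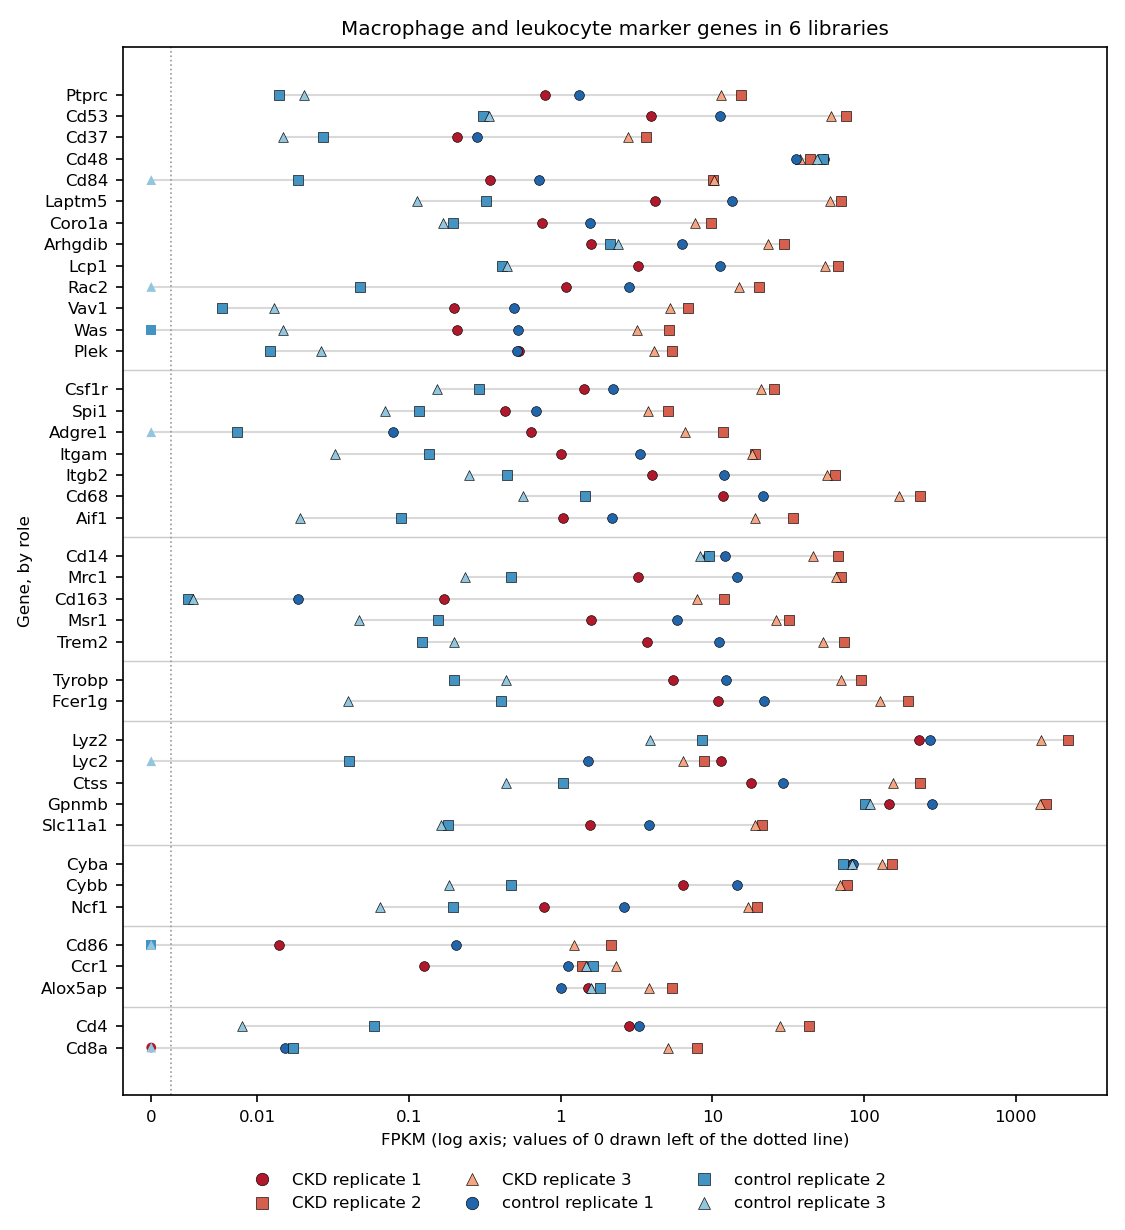
FPKM (log axis) of the 40 marker genes, 1 row per gene and grouped by role, with 1 point per library (red shades CKD, blue shades control, values of 0 left of the dotted line). For 37 genes the points of CKD replicates 2 and 3 lie above those of the other 4 libraries, and for 34 the point of control replicate 1 lies above that of CKD replicate 1.

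Summed over the 40 genes, the level was 5681 and 4337 FPKM in CKD replicates 2 and 3, which was 1.32% and 1.03% of all FPKM of those libraries. The sum was 630 FPKM in CKD replicate 1, 900 in control replicate 1, 258 in control replicate 2 and 263 in control replicate 3. Lyz2, which encodes lysozyme, and Gpnmb, a glycoprotein of lysosomes, made up 66.9% and 67.1% of it in CKD replicates 2 and 3. Their share of the sum was nearly as large in CKD replicate 1 (60.0%) and control replicate 1 (61.4%). It was 42.4% in control replicate 2 and 43.2% in control replicate 3. In these 2 libraries most of the remainder was Cyba (73.1 and 83.0 FPKM) and Cd48 (53.3 and 48.7 FPKM). The sums thus hide how low most other marker genes were there. Stromal genes were abundant in every library. A list of 18 stromal genes summed to between 13416 and 20103 FPKM in CKD and between 15921 and 16961 FPKM in control, with the lowest sums in CKD replicates 2 and 3. Among these, the collagen gene Col1a1 had levels of 5299, 2712 and 2620 FPKM in CKD replicates 1, 2 and 3, and 5881, 2858 and 3000 FPKM in control replicates 1, 2 and 3. Vim, Col1a1, Col1a2 and Col3a1 dominated the sum, which hides how single genes differed. Named after its values were seen, Dcn stood at 228, 312 and 227 FPKM in CKD and at 87.0, 19.9 and 9.15 FPKM in control. Eng, named likewise, stood at 10.8, 20.4 and 21.8 FPKM in CKD and at 11.8, 83.4 and 88.8 FPKM in control.

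**Figure D2:**
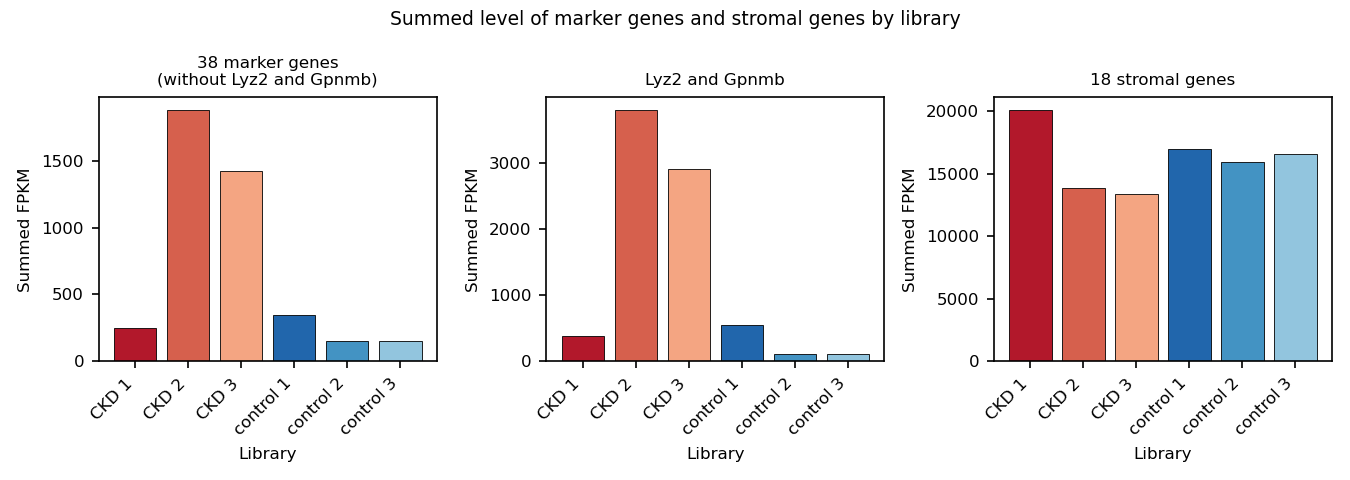
Summed FPKM per library (bars from 0, 1 bar per library) of the marker genes without Lyz2 and Gpnmb, of Lyz2 and Gpnmb, and of 18 stromal genes. The first sums reach 1880 and 1426 FPKM in CKD replicates 2 and 3 and 149 FPKM in control replicates 2 and 3. In control replicates 2 and 3, most of it is Cyba (73.1 and 83.0 FPKM) and Cd48 (53.3 and 48.7 FPKM). The stromal sums, dominated by a few abundant genes, differ far less.

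Between the groups, 1 of the 40 genes passed the test. Lyc2, a second lysozyme gene, was higher in CKD by limma with Benjamini-Hochberg adjustment over all 10638 genes tested, of which 1.33% were higher and 0.733% lower at the same threshold, and none of the 40 was called lower. A gene was tested when at least 3 libraries reached 1 FPKM, and 30 of the 40 met this. Several passed through the CKD libraries in which they were high, so their counts and medians are a description only. Of the 30, 28 had a positive log2 fold change (59.4% of all tested genes did) and 11 were higher with an unadjusted limma p below 0.05 (14.6% of all tested genes). None was lower at that p, against 7.51% of all tested genes. Fitted without the filter, all 40 had a median log2 fold change of 2.42 on the log2(FPKM + 1) scale, against 0.031 for all 16690 genes. None was called by limma, while 0.485% of all genes were called higher. An unadjusted limma p below 0.05 was found for 15 of the 40, and for 3209 of all 16690 genes. Standard errors were above 1 on this scale for most of the tested genes.

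**Figure D3:**
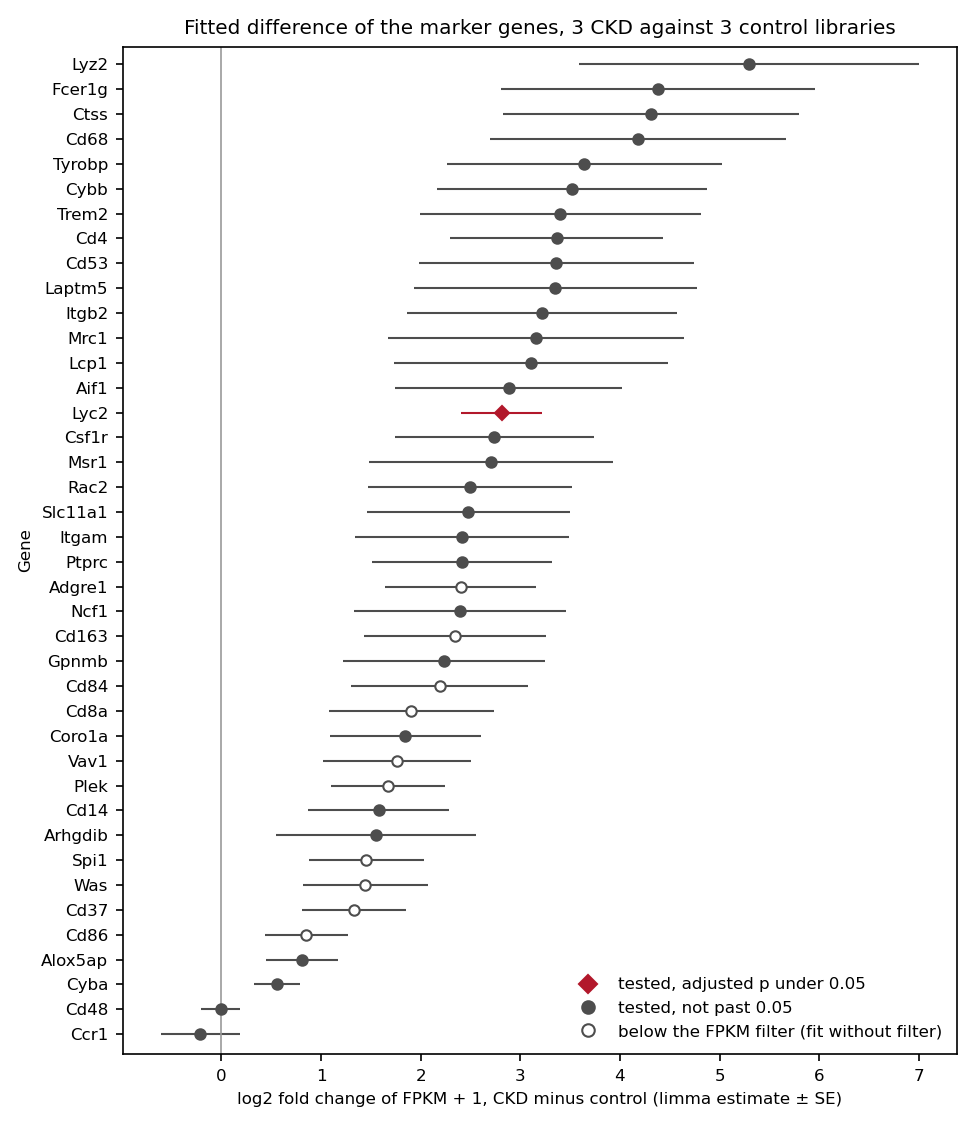
Limma log2 fold change of FPKM + 1, CKD minus control, with its standard error, for the 40 marker genes (3 libraries per group). Filled points are the 30 tested genes, open points the 10 below the filter, taken from the fit without a filter, and the red diamond is Lyc2, the 1 gene past the threshold at 2.81 ± 0.41.

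How many genes were called rested on single libraries. Without CKD replicate 1, 16 of the 30 were called higher by limma (10.7% of all tested genes were), and without both first replicates 28 were (34.7% of all tested genes) and 1, Cd48, was called lower. Without control replicate 1, 3 were called, namely Ctss, Lyc2 and Lyz2 (6.89% of all tested genes). With any other single library left out, limma called 0 of the 30, and 1 had an unadjusted p below 0.05 in each of these fits. Of all tested genes, 0.0282% were called higher without CKD replicate 2, and 0.0094% without CKD replicate 3, control replicate 2 or control replicate 3. Without both libraries whose tag goes against their title, 1 was called by limma, Cd14 (2.23% of all tested genes). With groups formed by that tag limma called 0, and 1 was below an unadjusted p of 0.05, against 641 of all 10638 tested genes. Limma called 0 with a pseudocount of 0.1 (1.04% of all tested genes) and limma-voom on recovered counts 0 (0.526%), whereas with sample quality weights it called 28 higher (36.2%). Limma called 1, Lyc2, with either other scaling (1.18% each) and with libraries that share a name start averaged (1.64%).

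Pan-leukocyte genes other than Cd48 were all highest in CKD replicates 2 and 3. Ptprc, whose product CD45 marks all nucleated blood cells, had levels of 0.783, 15.5 and 11.4 FPKM in CKD replicates 1, 2 and 3, and 1.33, 0.0140 and 0.0204 FPKM in control replicates 1, 2 and 3. In control replicates 2 and 3 these levels rest on 3 and 4 fragments, at or near the floor. The groups overlapped, and the log2 fold change was 2.41 ± 0.90 (SE, limma adjusted p = 0.201). In CKD replicates 2 and 3, 2735 and 2517 fragments of Ptprc were counted. The typing of the cultures as CD45-negative was by flow cytometry, which reads surface protein and not RNA, so the measures are not directly comparable.

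The tetraspanin gene Cd53 had levels of 3.92, 75.8 and 60.5 FPKM in CKD replicates 1 to 3 and 11.2, 0.308 and 0.336 FPKM in control replicates 1 to 3. Laptm5, a lysosomal membrane protein of blood cells, stood at 4.21, 70.8 and 59.4 FPKM in CKD and at 13.5, 0.324 and 0.113 FPKM in control. Lcp1, the leukocyte form of the actin-bundling protein plastin, stood at 3.24, 67.1 and 55.0 FPKM in CKD and at 11.3, 0.409 and 0.446 FPKM in control. In all 3, control replicate 1 was above CKD replicate 1.

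Genes of the signalling that drives the leukocyte cytoskeleton were lower, and again highest in CKD replicates 2 and 3. Rac2, a small GTPase of blood cells, stood at 1.09, 20.4 and 15.0 FPKM in CKD and at 2.81, 0.0478 and 0 FPKM in control. The exchange factor gene Vav1 reached 6.89 FPKM, and Was, which encodes an activator of actin assembly, reached 5.17 FPKM, both in CKD replicate 2. Coro1a, encoding the actin-binding coronin, reached 9.85 FPKM there, with 0.195 and 0.167 FPKM in control replicates 2 and 3. Plek, encoding the kinase substrate pleckstrin, was 1 of 4 genes with every CKD library above every control, by a small margin of 0.535 FPKM in CKD replicate 1 over 0.515 FPKM in control replicate 1. Over all genes of the table, 16.9% had every CKD library above every control.

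Arhgdib, an inhibitor of small GTPases, differed from these in having a base level in the libraries with hardly any Ptprc. Its levels were 1.58, 29.9 and 23.4 FPKM in CKD replicates 1 to 3 and 6.34, 2.10 and 2.39 FPKM in control replicates 1 to 3, so that its lowest value was that of CKD replicate 1. Of the remaining pan-leukocyte genes, the tetraspanin gene Cd37 reached 3.66 FPKM and the SLAM family receptor gene Cd84 reached 10.2 FPKM. Both were at 0.0273 FPKM or less in control replicates 2 and 3.

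Cd48, which encodes a GPI-anchored SLAM family protein, was the clear exception. It had levels of 54.4, 44.3 and 37.7 FPKM in CKD replicates 1, 2 and 3, and 35.5, 53.3 and 48.7 FPKM in control replicates 1, 2 and 3. The gene was thus as high in the libraries with 3 and 4 fragments of Ptprc as in those with far more. The CKD mean was 45.5 ± 8.38 FPKM and the control mean 45.8 ± 9.22 FPKM (SD, 3 libraries each), with a log2 fold change of -0.0065 ± 0.20 (SE, limma adjusted p = 0.989).

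Genes of macrophage identity were led by Cd68, a glycoprotein of macrophage lysosomes. Levels of this gene were 11.8, 235 and 170 FPKM in CKD replicates 1, 2 and 3, and 21.8, 1.44 and 0.566 FPKM in control replicates 1, 2 and 3. CKD replicate 1 lay below control replicate 1, so the groups overlapped. The log2 fold change was 4.18 ± 1.49 (SE, limma adjusted p = 0.185).

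Csf1r, the receptor for the growth factor of macrophages, had levels of 1.42, 25.7 and 21.0 FPKM in CKD replicates 1, 2 and 3 and 2.20, 0.290 and 0.152 FPKM in control replicates 1, 2 and 3. These gave a log2 fold change of 2.74 ± 1.00 (SE, limma adjusted p = 0.192). Spi1, the transcription factor gene upstream of it, stood at 0.432, 5.11 and 3.76 FPKM in CKD and at 0.691, 0.116 and 0.0694 FPKM in control. It did not reach the filter, since only 2 libraries held 1 FPKM or more.

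The integrin chains Itgam and Itgb2, which together form the complement receptor CD11b/CD18, were present at unequal levels. Itgb2, the chain shared by all leukocyte integrins of its class, stood at 4.01, 64.0 and 57.1 FPKM in CKD and at 12.0, 0.443 and 0.250 FPKM in control. Itgam stood at 1.00, 19.1 and 18.3 FPKM in CKD and at 3.35, 0.136 and 0.0323 FPKM in control. Aif1, a calcium-binding protein also called IBA1, stood at 1.03, 34.1 and 19.0 FPKM in CKD and at 2.20, 0.0881 and 0.0192 FPKM in control. All 3 had the common order of libraries.

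Adgre1, the rat gene of the F4/80 antigen of mature macrophages, departed from that order. It had levels of 0.638, 11.8 and 6.63 FPKM in CKD replicates 1, 2 and 3, and 0.0788, 0.00738 and 0 FPKM in control replicates 1, 2 and 3. Every CKD library was above every control, and CKD replicate 1, with 80 fragments, was above control replicate 1, with 12. Below the filter, it had a log2 fold change of 2.40 ± 0.76 (SE, limma adjusted p = 0.194) in the fit without one.

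Among receptors for uptake and pattern recognition, Cd163 separated the groups in the same way. This scavenger receptor for haemoglobin complexes had levels of 0.169, 12.0 and 7.89 FPKM in CKD replicates 1, 2 and 3, and 0.0186, 0.00348 and 0.00380 FPKM in control replicates 1, 2 and 3. The control levels rest on 6, 1 and 1 fragments, against 45, 2841 and 2336 in CKD. Its log2 fold change in the fit without a filter was 2.35 ± 0.91 (SE, limma adjusted p = 0.251), a scale on which values well below 1 FPKM hardly differ.

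The mannose receptor gene Mrc1 kept the common order instead, at 3.22, 71.0 and 65.1 FPKM in CKD and 14.6, 0.471 and 0.235 FPKM in control. The scavenger receptor gene Msr1 stood at 1.58, 31.8 and 26.2 FPKM in CKD and at 5.85, 0.155 and 0.0471 FPKM in control. Trem2, a lipid receptor of tissue macrophages, stood at 3.69, 74.3 and 53.5 FPKM in CKD and at 11.1, 0.122 and 0.199 FPKM in control. These 3 receptors were all between 3 and 5 times as high in control replicate 1 as in CKD replicate 1, the reverse of Cd163 and Adgre1.

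Cd14, the co-receptor for bacterial lipopolysaccharide, had a base level in every library. It had levels of 9.41, 67.7 and 46.4 FPKM in CKD replicates 1, 2 and 3 and 12.1, 9.50 and 8.27 FPKM in control replicates 1, 2 and 3. Outside CKD replicates 2 and 3 the 4 libraries lay within a narrow range, although Ptprc differed by a large factor among them.

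Both adaptors that carry an ITAM, the motif through which Fc receptors and TREM2 signal, were high. Tyrobp stood at 5.53, 95.2 and 70.4 FPKM in CKD and at 12.3, 0.200 and 0.435 FPKM in control. Fcer1g stood at 10.9, 196 and 127 FPKM in CKD and at 21.8, 0.402 and 0.0398 FPKM in control. In both the groups overlapped, with control replicate 1 above CKD replicate 1.

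Lyz2 had the highest level of the 40 genes in each CKD library, while Gpnmb was above it in each control library. Its levels were 232, 2224 and 1473 FPKM in CKD replicates 1, 2 and 3 and 271, 8.56 and 3.87 FPKM in control replicates 1, 2 and 3. Control replicate 1 was slightly above CKD replicate 1, so the groups still overlapped, and the log2 fold change was 5.29 ± 1.71 (SE, limma adjusted p = 0.159).

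Lyc2 behaved otherwise. It had levels of 11.4, 8.87 and 6.44 FPKM in CKD replicates 1, 2 and 3 and 1.52, 0.0402 and 0 FPKM in control replicates 1, 2 and 3, and was the only gene besides Cd48 with its highest value in CKD replicate 1. The control levels rest on 85, 2 and 0 fragments, against 525, 364 and 331 in CKD, so that control replicates 2 and 3 were below the floor of 3. All CKD libraries were above all controls, and the log2 fold change was 2.81 ± 0.41 (SE, limma adjusted p = 0.0439). Limma made no such call without CKD replicate 2 (adjusted p = 0.199), without CKD replicate 3 (adjusted p = 0.210), without control replicate 2 (adjusted p = 0.153) or without control replicate 3 (adjusted p = 0.210). The call also ended when low genes were kept in (limma adjusted p = 0.0600) and with a pseudocount of 0.1 (limma adjusted p = 0.0885). With groups formed by the disease model tag the log2 fold change was 0.43 (limma adjusted p = 0.922). Limma-voom on recovered counts lost the call too (adjusted p = 0.0904), as did limma once both libraries whose tag conflicts were dropped (adjusted p = 0.103).

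Within a library, Lyc2 was 0.0491 times as high as Lyz2 in CKD replicate 1, against 0.00399 and 0.00438 times in CKD replicates 2 and 3 and 0.00561 times in control replicate 1. The genes lie next to each other, with no other gene starting between them in the GRCr8 reference annotation, and are close relatives. Fragments could be shared between them in counting, which makes the level of Lyc2 uncertain. CKD replicate 1 had less Lyz2 than CKD replicates 2 and 3, and also than control replicate 1, while it had more Lyc2 than any of them.

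The other lysosomal genes were likewise highest in CKD replicates 2 and 3. Ctss, a cysteine protease of antigen-presenting cells, stood at 17.9, 233 and 155 FPKM in CKD and at 29.1, 1.03 and 0.437 FPKM in control, with a log2 fold change of 4.31 ± 1.48 (SE, limma adjusted p = 0.176). Slc11a1, a metal transporter of phagosomes, stood at 1.56, 21.4 and 19.1 FPKM in CKD and at 3.82, 0.181 and 0.163 FPKM in control. Gpnmb was high in all libraries, at 146, 1578 and 1438 FPKM in CKD and at 282, 101 and 110 FPKM in control. Its level in control replicates 2 and 3, from 9721 and 9691 fragments, stood against 72 and 26 fragments of Cd68 in the same libraries.

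Of the subunits of the phagocyte oxidase, which makes superoxide, the membrane subunit gene Cybb stood at 6.41, 77.8 and 69.3 FPKM in CKD and at 14.6, 0.468 and 0.184 FPKM in control. The cytosolic subunit gene Ncf1 followed it, with 0.779, 19.7 and 17.2 FPKM in CKD and 2.62, 0.195 and 0.0646 FPKM in control. Cyba, whose product p22phox also partners oxidases of non-phagocytic cells, did not share their range. It stood at 82.8, 152 and 131 FPKM in CKD and at 84.4, 73.1 and 83.0 FPKM in control, so that 4 libraries were nearly level and CKD replicates 2 and 3 stood above them.

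The co-stimulatory ligand gene Cd86 was low, with 2.14 and 1.22 FPKM in CKD replicates 2 and 3, 0.204 FPKM in control replicate 1, 1 fragment in CKD replicate 1 and none in the other controls. The chemokine receptor gene Ccr1 did not follow the markers. It stood at 0.126, 1.38 and 2.31 FPKM in CKD and at 1.12, 1.63 and 1.47 FPKM in control, with its lowest value in CKD replicate 1 (log2 fold change -0.21 ± 0.40 SE, limma adjusted p = 0.792). Alox5ap, which presents arachidonic acid for leukotriene synthesis, stood at 1.52, 5.46 and 3.82 FPKM in CKD and at 1.00, 1.82 and 1.59 FPKM in control. As with Cyba and Cd14, its level outside CKD replicates 2 and 3 did not follow Ptprc.

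Cd4 and Cd8a encode co-receptors of T cells, and in the rat both also occur on other cells, CD4 on macrophages and CD8 alpha on natural killer cells and some macrophages. Cd4 had levels of 2.83, 43.7 and 28.1 FPKM in CKD replicates 1, 2 and 3 and 3.27, 0.0585 and 0.00797 FPKM in control replicates 1, 2 and 3, with a log2 fold change of 3.36 ± 1.07 (SE, limma adjusted p = 0.156). Cd8a reached 7.93 and 5.08 FPKM in CKD replicates 2 and 3, and was at 0 FPKM in CKD replicate 1 and at 0.0154, 0.0172 and 0 FPKM in control replicates 1 to 3. Those 4 libraries held 0, 1, 1 and 0 fragments, below the floor of 3, against 379 and 304 in CKD replicates 2 and 3. Of 15 other genes of T and natural killer cells, 4 were measured. Cd8b, chosen for mention after its values were seen, reached 5.24 and 4.17 FPKM in CKD replicates 2 and 3 and 0.288 FPKM or less elsewhere. Lck, the kinase bound to both co-receptors in T cells, was at 0.174 FPKM or less in every library, and the T-cell adhesion gene Cd2 at 0.426 FPKM or less. The granzyme gene Gzmb, a protease of cytotoxic granules, had another order, at 14.7, 2.32 and 1.79 FPKM in CKD and 12.1, 1.28 and 1.13 FPKM in control, high in both first replicates. The part of T or natural killer cells in the levels of Cd4 and Cd8a was not tested.

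Set against Ptprc within each of 4 libraries, some of the markers kept a nearly fixed proportion and others did not. The comparison was made in CKD replicates 1, 2 and 3 and control replicate 1, the libraries with over 50 Ptprc fragments. Cd68 was 15.1, 15.1, 14.9 and 16.4 times as high as Ptprc in these libraries, in that order. Csf1r was 1.81, 1.66, 1.85 and 1.66 times as high. Of 37 genes with more than 3 fragments in all of these libraries, 17 had a highest ratio within 2 times their lowest, and the median gene had 2.06 times. The absolute level of Ptprc differed far more among the same libraries, from 0.783 to 15.5 FPKM. Nothing is said of proportions in control replicates 2 and 3, where 3 and 4 fragments of Ptprc stood against 50 and 24 of Csf1r.

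The ratio of Adgre1 to Ptprc was 0.815, 0.764 and 0.582 in CKD replicates 1, 2 and 3 and 0.0594 in control replicate 1. That of Cd163 was 0.216, 0.775 and 0.692 in the CKD libraries and 0.0140 in control replicate 1. Mrc1 went the other way, at 4.11, 4.58 and 5.71 times Ptprc in the CKD libraries and 11.0 times in control replicate 1. It shared this with many of the genes, among them Laptm5, Itgb2, Lcp1, Trem2 and Msr1. Laptm5, for example, was 5.38, 4.57 and 5.21 times Ptprc in the CKD libraries and 10.2 times in control replicate 1. Others, such as Lyz2 and Cd14, had their highest ratio in CKD replicate 1. Only 5 of the 37 ratios spread over more than 10 times, those of Adgre1, Cd163, Lyc2, Cd48 and Cyba. With a single control library available for it, this comparison has no replicate in the control group and no test.

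Directly against control replicate 1, the median gene was 7.25 times as high in CKD replicate 2 and 5.38 times as high in CKD replicate 3, over the 39 genes with more than 3 fragments in both libraries. The middle 50% of genes lay between 5.52 and 10.7 times in CKD replicate 2. Cd163 was 645 times as high there (95% counting interval 296 to 1760) and Adgre1 was 150 times as high (85.7 to 291). In CKD replicate 1 the median gene was 0.481 times as high as in control replicate 1, while Cd163 was 9.11 times (3.88 to 26.1) and Adgre1 8.10 times (4.39 to 16.3) as high. Intervals cover counting error only. CKD replicates 2 and 3 were alike, with a median ratio of 1.32 and a range from 0.599 for Ccr1 to 1.79 for Aif1.

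**Figure D4:**
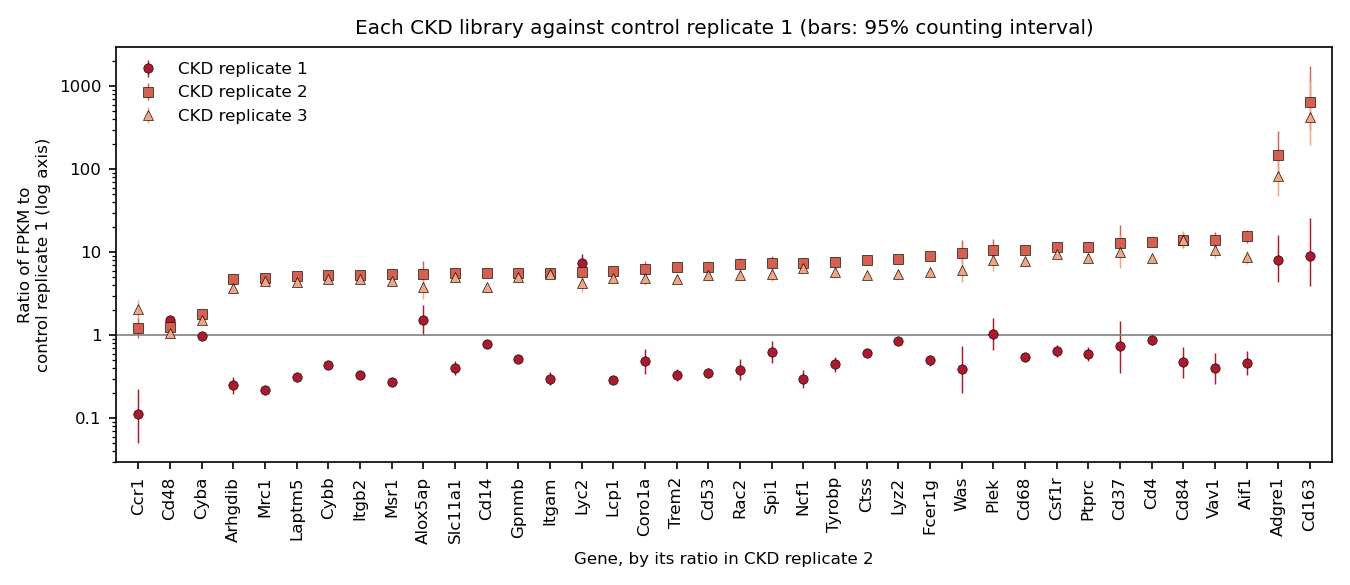
Ratio of the FPKM of each CKD library to that of control replicate 1 (log axis) for 38 genes with more than 3 fragments in control replicate 1 and every CKD library, sorted by CKD replicate 2, with 95% counting intervals. Most genes lie near 7.25 times in CKD replicate 2 and near 0.481 times in CKD replicate 1, and Adgre1 and Cd163 lie far above at the right end.

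In the authors' deposited table, 10 of the 40 genes had a q-value under 0.05, all higher in CKD, against 6.72% of its 16690 genes in that direction. Among these 10, the authors' deposited table gave the lowest q-value to Cd163 at 8.80e-08, followed by Adgre1 at 0.000183 and Cd8a at 0.000444, with log2 fold changes of 9.47, 7.66 and 8.50. All 3 were below the FPKM filter used here, and Cd8a was at 0 in CKD replicate 1. The other 7 in the authors' deposited table were Cd37, Spi1, Gpnmb, Cd14, Plek, Csf1r and Coro1a, with q-values from 0.0115 to 0.0338. Ptprc and Cd68 had q-values of 0.130 and 0.0822 in the authors' deposited table.

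Further genes of phagocyte receptors and their signalling, 48 in all, were also examined. Of these 43 were measured and 20 tested. Limma called none, and 9 fell below an unadjusted p of 0.05, all higher in CKD, against 14.6% of all tested genes. Log2 fold changes were positive for all 20, against 59.4% of all tested genes, and their median was 2.23 against 0.053 for all tested genes. Some of the 20 reached the filter only through the CKD libraries, so these counts are a description. The highest levels were those of C1qa, a subunit of complement C1q made by macrophages, at 6.13, 116 and 59.1 FPKM in CKD and 13.7, 0.215 and 0.0782 FPKM in control. Next by mean level came the inhibitory receptor gene Lilrb4, at 4.74, 86.4 and 48.6 FPKM in CKD and 8.03, 0.0304 and 0.0166 FPKM in control. After it came the Fc receptor gene Fcgr1a, at 1.43, 26.8 and 21.0 FPKM in CKD and 3.18, 0.0528 and 0.0384 FPKM in control. C1qb, named although just below it by mean, reached 33.5 FPKM in CKD replicate 2. Named after their values were seen, Fcgr2b, an inhibitory Fc receptor gene, was highest in control replicate 1 at 3.78 FPKM, and the lectin gene Clec10a stood there at 5.17 FPKM against 0.189 FPKM in CKD replicate 1.

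The growth factor side was not missing in any library. Csf1, the ligand of CSF1R, stood at 77.0, 134 and 145 FPKM in CKD and at 80.7, 146 and 154 FPKM in control. The levels were lowest in both first replicates. Of the 7 genes of colony-stimulating factors and their receptors, all were measured, 2 were tested and none was called by limma, with 0 at an unadjusted p under 0.05. Csf2ra, a receptor chain for the granulocyte-macrophage factor, stood at 2.28, 21.3 and 15.4 FPKM in CKD and at 4.19, 1.62 and 2.45 FPKM in control.

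Of 12 myeloid transcription factor genes, 10 were measured, 6 tested and none called by limma, and 2 were higher below an unadjusted p of 0.05 (14.6% of all tested genes). The most abundant were Cebpb, Runx1 and Cebpa, which stromal cells express as well. Cebpb stood at 15.7, 35.9 and 33.2 FPKM in CKD and at 21.7, 29.2 and 34.6 FPKM in control, and Runx1 was between 16.6 and 25.1 FPKM in all libraries. Cebpa was lower, at 4.87, 12.2 and 11.8 FPKM in CKD and 3.47, 2.82 and 2.96 FPKM in control.

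Genes of MHC class II, by which activated macrophages present antigen, did not behave alike. Cd74, the invariant chain gene of these molecules, was at 0.326 FPKM or less in every library, and its highest value was that of control replicate 1. Ciita, their transcriptional activator, was at 0.0517 FPKM or less, and the class II chain gene RT1-Da at 0.246 FPKM or less. RT1-DMa, a chain of the peptide-loading molecule DM, was by contrast highest where the markers were, at 5.24, 39.0 and 27.6 FPKM in CKD and 9.58, 10.6 and 10.8 FPKM in control.

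Few genes of other blood cells were measured, and most of those were low. Of 8 B-cell genes 1 was measured, Cd79a, at 0.0637 FPKM or less and at 0 in all CKD libraries. Of 12 neutrophil genes 3 were measured, and the collagenase gene Mmp8 was the highest at 1.80 and 1.40 FPKM in CKD replicates 2 and 3. The 3 measured erythroid genes of 11 summed to 1.14 FPKM or less, and the 1 measured mast cell gene of 6, Hdc, was at 0.123 FPKM or less. The 2 measured dendritic cell genes of 7 summed to between 0.678 and 1.27 FPKM. For endothelial cells, which are not blood cells, 7 genes of 8 were measured, and their sum was between 6.37 and 13.6 FPKM. Most of it was Egfl7, at 5.90 to 11.2 FPKM, so the sum hides how single genes differed. Tie1 was highest in CKD replicates 2 and 3 (2.48 and 2.31 FPKM) and at 0.154 FPKM or less elsewhere. Tek went the other way, with every CKD library (0.374 FPKM or less) below every control (0.644 FPKM or more). The rest were at 0.172 FPKM or less. Of 6 megakaryocyte genes 3 were measured. Pf4, a platelet chemokine gene, was high at 13.1, 150 and 102 FPKM in CKD and 41.5, 2.15 and 0.847 FPKM in control, while the integrin gene Itga2b, which defines that lineage, was at 0.136 FPKM or less.

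Osteoclasts, the bone-resorbing relatives of macrophages, have a marker list whose genes did not share one order. Of 11 osteoclast genes 9 were measured and 6 tested, none passed the limma threshold and 4 were below an unadjusted p of 0.05, all higher in CKD (14.6% of all tested genes). Ctsk, the collagen-degrading protease gene, was highest in CKD replicate 1 at 144 FPKM and lay between 79.2 and 112 FPKM in the other libraries. Acp5, the tartrate-resistant phosphatase gene, stood at 3.69, 10.0 and 8.29 FPKM in CKD and at 3.77, 3.01 and 3.15 FPKM in control. Atp6v0d2, a subunit gene of the proton pump, was high where the marker genes were, at 1.51, 7.77 and 7.81 FPKM in CKD and 2.42, 0.165 and 0.0400 FPKM in control. So were Dcstamp, Oscar and Tnfrsf11a, the 3 measured genes below the filter, at no more than 1.02, 0.461 and 0.690 FPKM. The remaining tested genes had other orders. Itgb3 and Nfatc1 were highest in CKD replicate 1, at 3.97 and 3.21 FPKM. Mmp9 was highest in CKD replicate 3 at 2.09 FPKM, followed by control replicate 1 at 1.64 FPKM. What part osteoclasts or any other cell type had in the levels of the marker genes was not tested.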

How the data were processed

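The authors deposited 1 table with FPKM values for 6 libraries, mean normalized counts per group, fold changes (linear and log2) and q-values beside the p-value, per the file headers, written with decimal commas. Per the submitters' processing notes, the aligner HISAT2 2.1.0, the counter HTSeq 0.11.2 and the test program DESeq2 1.22.2 were among the tools, and the build was mRatBN7.2; order and settings are not given in the sources used here. The lowest mean normalized count was 1.03.

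Here, log2(FPKM + 1) was tested with limma 3.58.1 (R 4.3.3, mean-variance trend, two-sided, Benjamini-Hochberg at 0.05) on the 10638 genes that reached 1 FPKM in 3 or more libraries. The fit was first run on simulated data, in which genes varied independently among libraries of a group. In the real libraries, the median log2(FPKM + 1) of the tested marker genes had a pooled SD of 1.93 between libraries. The simulation does not cover such a joint spread. Fold changes on this scale understate low genes. Fragment counts were recovered from FPKM and group means of normalized counts (100140 of 100140 values whole within 0.01) and served for depth, ratios and limma-voom. A gene named in the text is one of the 40 genes, or among the 3 most abundant of another list or called, unless stated. Of the 40 genes, 7 had full alternatives run: Ptprc, Csf1r, Cd68, the called gene and the 5 with the lowest p. Test values of Cd48, Ccr1, Adgre1 and Cd163, and the genes Lck, Itga2b and those of MHC class II, were added after their levels were seen. The 40 genes and all lists were chosen with earlier results of these data known. All 40 matched the GRCr8 gene table by identifier and symbol; no coordinates are given, since builds differ.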

Additional observations from a re-analysis of the deposited data

How the results depend on the processing

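Of the 40 marker genes, 1 was called between the groups. By limma the number was 0 without a filter on low values (15 with an unadjusted p under 0.05), 0 with a pseudocount of 0.1 (16) and 0 with groups by the disease model tag (1). Limma-voom on recovered counts called 0, with 4 under an unadjusted p of 0.05, against 2297 of 10638 genes. It called 29 once sample quality weights were added, where 5983 of 10638 genes were called. The number was 29 without both first replicates, and from 0 to 16 when single libraries were left out. Over all genes, where 220 were called, the number ran from 6 to 1602 without single libraries. It was 5851 without both first replicates, 133 without a filter, 98 in limma-voom and 0 by the disease model tag (limma). Libraries of the same replicate number did not deviate together over all tested genes (correlation of deviations 0.036, -0.031 and 0.109). With 3 libraries per group this cannot exclude a shared batch. The replicate block gave 88 genes over all, and 1 marker gene. The median log2 fold change of the 30 tested marker genes was 2.78. It moved to 7.37 in limma-voom with sample quality weights and stayed positive in all alternatives, which ran from 1.99 upward. Other scalings moved no call of the marker genes, while over all genes 142 were higher and 78 lower, against 125 and 110 scaled by upper quartile and 126 and 104 by median-of-ratios size factors. Levels in control replicates 2 and 3 rest on 3 fragments or fewer for 12 and 14 of the 40 genes, so differences among low genes were not detectable there.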
